A study of Mus musculus with 21 samples.

Results

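The genes described here are the ligands, receptors and pathway genes of Wnt signaling in the brains of SAMP8 mice. They were taken from the deposited gene table by symbol: the Wnt ligands, Frizzled receptors, Dishevelled, Axin, secreted Frizzled-related protein, Dickkopf and Tcf7 families, together with Lrp5, Lrp6, Lef1, Ctnnb1, Apc, Gsk3b, Csnk1a1, Porcn, Wls, Ror1, Ror2, Ryk, Rnf43, Znrf3, Nkd1, Nkd2 and Lgr4. The rule found 54 of the 16318 genes in the table, and all 54 passed the low-count filter that left 16303 genes for testing. SAMP8 is a senescence-accelerated inbred strain with memory deficits, and every mouse analysed was of this strain, so no control strain enters the comparison. HsTX1[R14A] is a scorpion toxin analog that blocks Kv1.3, a potassium channel of microglia and T cells. It was injected under the skin every other day for 8 weeks at 1 mg/kg in PBS (phosphate-buffered saline), starting at 4 months of age, and control mice received PBS alone. Whole-brain RNA taken at 6 months gave 1 library per mouse, from 6 female and 6 male PBS mice and from 3 female and 6 male HsTX1[R14A] mice. All mice had also gone through behavioral tests in the last weeks of dosing. The question put to these genes was whether their RNA levels changed in the brain with HsTX1[R14A].

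Wnt ligands are secreted lipid-modified proteins that bind Frizzled receptors. When the coreceptors Lrp5 or Lrp6 join the complex, Dishevelled is recruited, the destruction complex of Axin, Apc, Gsk3b and Csnk1a1 stops marking beta-catenin for degradation, and beta-catenin enters the nucleus to act with TCF/LEF factors. Other branches run through Ror and Ryk receptors and the planar cell polarity proteins. In the adult brain the pathway is known for its roles at synapses, in hippocampal neurogenesis and in keeping the blood-brain barrier closed.

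Values for single genes are CPM, counts scaled to the library total and by TMM (a correction for library composition), and fold changes are on the log2 scale, HsTX1[R14A] over PBS, with sex in the model. A gene was called when edgeR's quasi-likelihood F-test placed it at or under 0.05 once p-values were adjusted over all genes tested (Benjamini-Hochberg). Libraries held between 14917174 and 47613792 counts. The share of counts from mitochondrial genes was 9.33% to 20.2% in PBS mice and 7.13% to 13.5% in HsTX1[R14A] mice. The libraries also differed in how counts depended on transcript length. The slope of centered log2 CPM on the log2 length of the longest transcript was -0.0764 ± 0.161 (SD, n = 12) in PBS libraries and 0.102 ± 0.119 (SD, n = 9) in HsTX1[R14A] libraries, a difference of 0.201 after averaging over the sexes (permutation within sex, 100000 resamples, two-sided, p = 0.00628). PBS mice 103 and 90 had the lowest slopes, at -0.384 and -0.337. The column headers name the libraries in 2 forms. The more common form was used for 10 of the PBS and 5 of the HsTX1[R14A] libraries, the other for the remaining 2 and 4, and the sources used here do not say what the forms stand for. Brain markers were present throughout: the summed level of 11 neuron genes ran from 6215 to 11376 CPM over the 21 mice. In whole-brain RNA, fewer cells of a type and less RNA per cell cannot be told apart.

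Of the 54 Wnt pathway genes, 8 were called higher and 2 lower in HsTX1[R14A]-treated brains. That is 18.5% of the members, beside 31.6% called among all genes tested (15.5% higher and 16.1% lower). The 8 higher genes were the ligand Wnt7b, the ligand-modifying enzyme Porcn, the receptors Fzd3, Fzd4 and Lrp6, and the cytoplasmic proteins Dvl3, Gsk3b and Ctnnb1, which encodes beta-catenin. The 2 lower genes were the ligand carrier Wls and the receptor Ryk. Fold changes were small, with log2 values from -0.50 (Tcf7) to 0.77 (Dvl3) over all members, and in no member were the PBS and HsTX1[R14A] mice fully separated. How many of all genes were fully separated was not counted. Of the members, 20 had an unadjusted p under 0.05, beside 46.4% of all genes. A log2 fold change above 0 was found in 38 of the 54 members and in 48.6% of all genes. The median was 0.22 for the members and -0.01 for all genes, and the members' median longest transcript was 3984 bases against 3284 bases for all genes with a length. Once the dependence of each library on length and GC content was taken out, 27 of the 54 members lay above 0. Of the 8 genes called higher, Ctnnb1, Dvl3 and Fzd3 were still called in that fit, neither Wls nor Ryk was called lower, and Dvl1 was newly called lower (log2 -0.30). With the length slope as a covariate, 21 of 54 lay above 0, and neither a member nor any other gene was called. In that fit 7 members, and 1865 of all genes, had an unadjusted p under 0.05.

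In GRCm38, the ligand, secretion and Frizzled genes called higher are Wnt7b on chromosome 15 (85535437 to 85582473, minus strand), Porcn on chromosome X (8193848 to 8206525, minus strand), Fzd3 on chromosome 14 (65192449 to 65262463, minus strand), Fzd4 on chromosome 7 (89404355 to 89413134, plus strand). The other genes called higher are Lrp6 on chromosome 6 (134446476 to 134566965, minus strand), Dvl3 on chromosome 16 (20516982 to 20534010, plus strand), Gsk3b on chromosome 16 (38089001 to 38246084, plus strand) and Ctnnb1 on chromosome 9 (120929216 to 120960507, plus strand). The genes called lower are Wls on chromosome 3 (159839672 to 159938664, plus strand) and Ryk on chromosome 9 (102834917 to 102908305, plus strand).

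**Figure D1:**
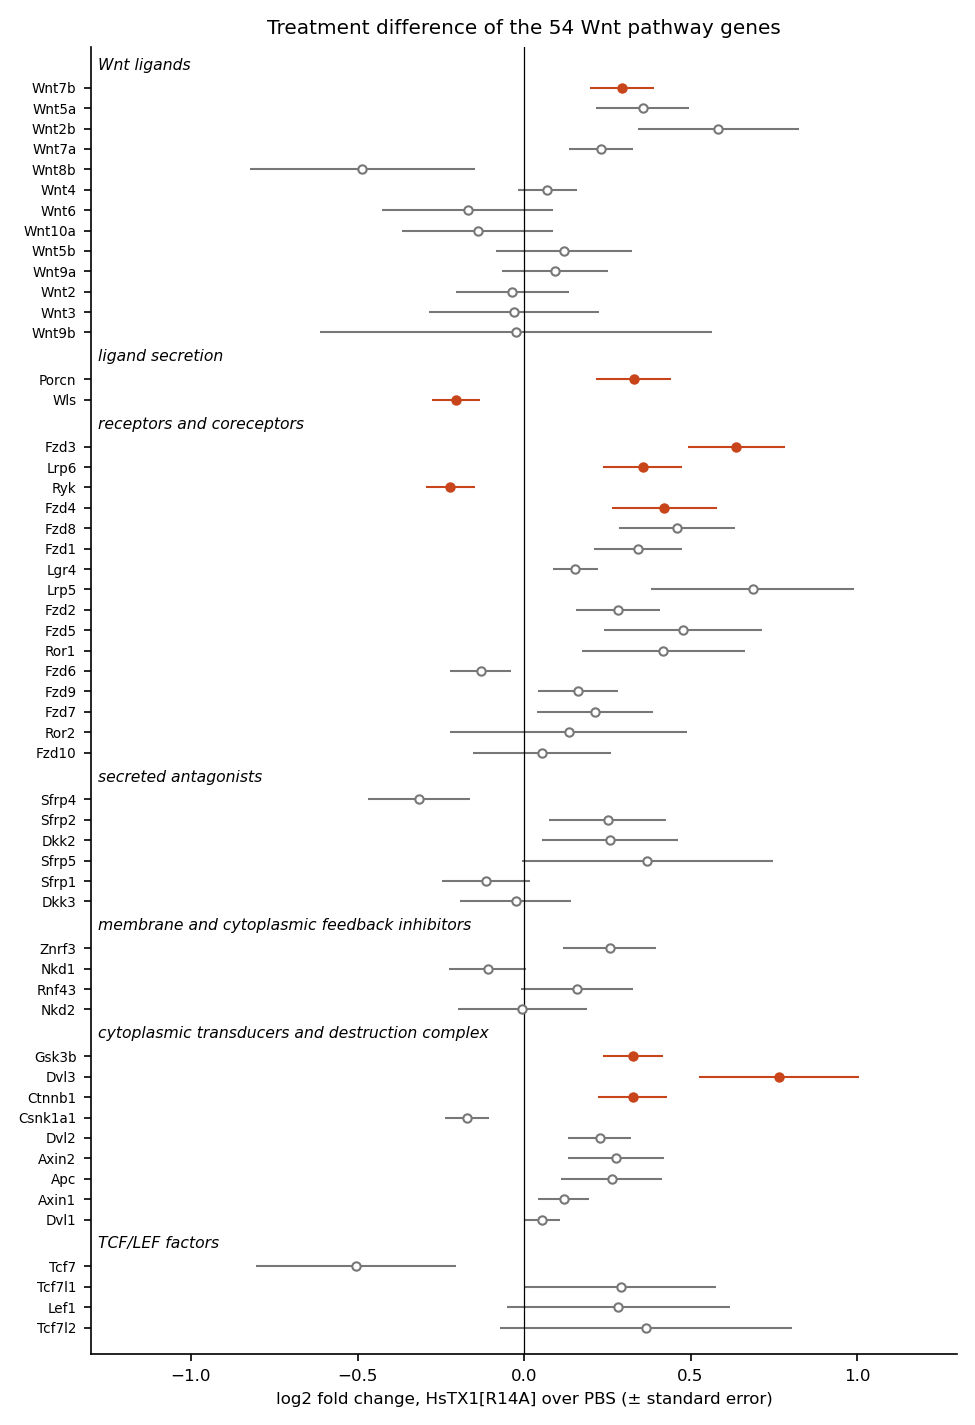
Treatment difference on the log2 scale (HsTX1[R14A] minus PBS, horizontal axis) with its standard error for the 54 Wnt pathway genes, grouped by role and ordered by p-value within a role. Filled points are the 10 genes called at an adjusted p of at most 0.05 (edgeR). The points run from -0.50 (Tcf7) to 0.77 (Dvl3), and 14 of the 16 receptors and coreceptors lie above 0.

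Among the 13 Wnt ligand genes, Wnt7b was the most abundant and the only one called. Levels were compared between genes as CPM per kb of the longest annotated transcript. In PBS mice Wnt7b, a ligand of neurons and astrocytes that acts on brain vessels, had 8.93 CPM per kb at the median (lowest 6.43, highest 11.4). Its close relative Wnt7a followed at 3.79 (2.99 to 4.27) and Wnt4 at 3.45 (2.65 to 4.50). Every PBS value of Wnt7b lay above every PBS value of the other ligands, while Wnt7a and Wnt4 overlapped. The order went on through Wnt9a (2.66), Wnt2 (2.17), Wnt10a (1.38), Wnt5a (0.900), Wnt3 (0.862), Wnt6 (0.486), Wnt5b (0.366), Wnt2b (0.160) and Wnt9b (0.124) to Wnt8b (0.108), all as medians of CPM per kb in the 12 PBS mice. Below Wnt7b, each ligand overlapped with its neighbor in this order. Wnt8b was the scarcest, with 0 counts in 1 HsTX1[R14A] mouse and a median of 8 counts over the 21 mice.

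**Figure D2:**
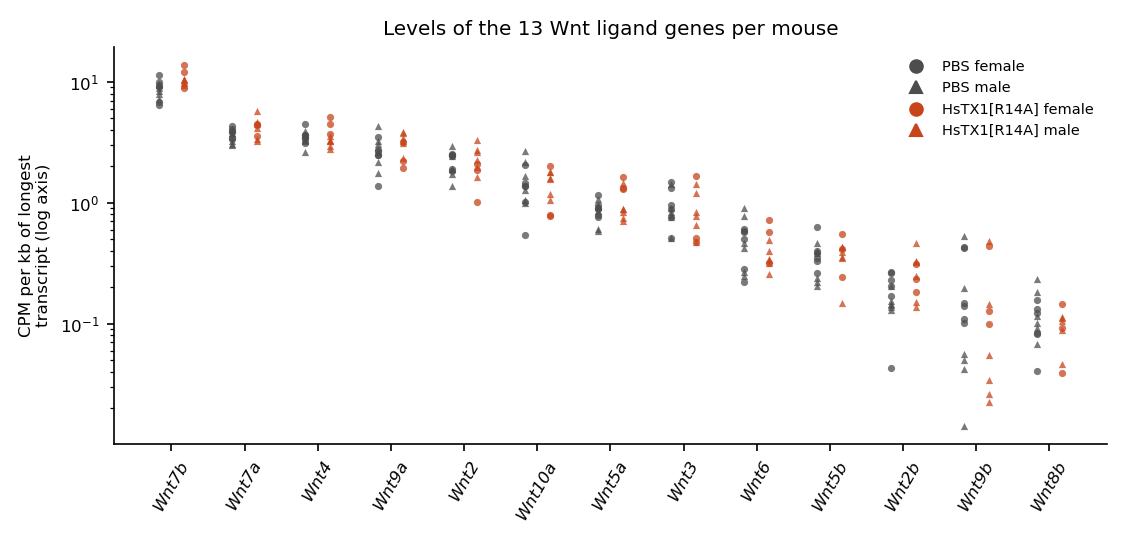
Level of the 13 Wnt ligand genes (CPM per kb of the longest transcript, log axis) in each of the 21 mice, in order of the PBS median. Circles are female and triangles male mice, gray PBS and orange HsTX1[R14A]; 1 HsTX1[R14A] mouse with 0 counts of Wnt8b cannot be drawn on a log axis. Wnt7b lies highest, and of the ligands above 0 in every mouse Wnt9b spreads most widely.

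Wnt7b rose with treatment. It ranged from 21.9 to 38.7 CPM in PBS mice (median 30.4) and from 30.1 to 46.8 CPM in HsTX1[R14A] mice (median 35.3). The groups overlapped: 6 PBS mice lay below every HsTX1[R14A] mouse and 2 HsTX1[R14A] mice lay above every PBS mouse. The fitted log2 fold change came to 0.29 (standard error 0.10, adjusted p = 0.0292, edgeR). The call was lost when PBS mouse 90 or HsTX1[R14A] mouse 71 or 72 was left out, with adjusted p up to 0.0760. After the length and GC trend was removed the value was 0.07 (adjusted p = 0.561), and with the length slope as a covariate it was 0.12 (adjusted p = 0.622). In PBS mice alone, Wnt7b rose and fell with the length slope of the library (r = 0.88, n = 12).

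No other ligand was called. Wnt5a, the best known ligand of the branches that do not use beta-catenin, ranged from 4.06 to 8.19 CPM in PBS mice (median 6.31) and from 4.97 to 11.4 CPM in HsTX1[R14A] mice (median 6.26). The medians were nearly equal, and 4 HsTX1[R14A] mice, the 3 females and male mouse 88, lay above every PBS mouse. PBS females ranged from 5.36 to 8.19 CPM and HsTX1[R14A] females from 9.06 to 11.4 CPM. Male medians were 6.19 CPM with PBS and 6.06 CPM with HsTX1[R14A]. Wnt5a was not called for an interaction of treatment with sex. Its log2 fold change was 0.36 (standard error 0.14, adjusted p = 0.0551), and leaving out 1 mouse at a time moved the adjusted p from 0.0309 to 0.137, with a call without PBS mouse 84, 82, 83 or 91 or HsTX1[R14A] mouse 93 or 89. Wnt2b was scarce, at 0.142 to 0.888 CPM in PBS mice (median 0.532) and 0.455 to 1.54 CPM in HsTX1[R14A] mice (median 0.829). Of the HsTX1[R14A] mice, 4 lay above every PBS mouse. Its log2 fold change was 0.58 (standard error 0.24, adjusted p = 0.0672), with a call only when HsTX1[R14A] mouse 93 was left out (0.0424). Log2 fold changes of the other 10 ligands ran from -0.49 (Wnt8b, standard error 0.34) to 0.23 (Wnt7a, standard error 0.10).

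Both genes of ligand secretion were called, in opposite directions. Porcn encodes the acyltransferase that attaches the lipid to Wnt proteins, and it lies on the X chromosome. It ranged from 18.6 to 35.9 CPM in PBS mice (median 30.2) and from 26.7 to 47.2 CPM in HsTX1[R14A] mice (median 36.5). The groups overlapped, with 5 HsTX1[R14A] mice above every PBS mouse. On the log2 scale the difference was 0.33 (standard error 0.11, adjusted p = 0.0333), and it was not called without PBS mouse 90 or 91 or HsTX1[R14A] mouse 98, 72, 74 or 81, with adjusted p up to 0.0679. The value was 0.25 after removal of the length and GC trend (adjusted p = 0.0562) and 0.0337 with the length slope as a covariate (adjusted p = 0.908).

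Wls encodes the membrane carrier that brings the lipid-modified ligand to the cell surface. It ranged from 35.3 to 50.7 CPM in PBS mice (median 41.4) and from 32.5 to 43.3 CPM in HsTX1[R14A] mice (median 36.1). Of the PBS mice, 4 lay above every HsTX1[R14A] mouse, and 4 HsTX1[R14A] mice lay below every PBS mouse. The fitted log2 fold change came to -0.20 (standard error 0.07, adjusted p = 0.0394). It was not called without PBS mouse 73, 83, 90 or 91 or HsTX1[R14A] mouse 72, 74, 88, 93, 81 or 89, with adjusted p up to 0.0775. Wls had little relation to the length slope in PBS mice (r = -0.14, n = 12). Its fold change was -0.20 with the slope as a covariate (adjusted p = 0.380), and -0.05 after the length and GC trend was removed (adjusted p = 0.619).

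Of the 16 receptors and coreceptors, 3 were called higher and 1 lower (25% called, beside 31.6% of all genes), and 14 had a log2 fold change above 0. Fzd3, a Frizzled receptor needed for the growth of long axon tracts, showed the smallest p of all members. It ranged from 8.05 to 20.7 CPM in PBS mice (median 14.4) and from 17.4 to 25.4 CPM in HsTX1[R14A] mice (median 23.1). Of the 12 PBS mice, 9 lay below every HsTX1[R14A] mouse, and 6 of the 9 HsTX1[R14A] mice lay above every PBS mouse. Its log2 fold change was 0.64 (standard error 0.15, adjusted p = 0.0152). Fzd3 was called in each of the 21 fits that left out 1 mouse (adjusted p 0.00708 to 0.0337) and after removal of the length and GC trend (log2 fold change 0.47, adjusted p = 0.0125). It was not called with the length slope as a covariate (0.26, adjusted p = 0.357) or within the more common name form (0.70, adjusted p = 0.0602). Neither of those fits called any gene.

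Lrp6, the coreceptor that is phosphorylated when a Wnt binds, ranged from 25.4 to 55.2 CPM in PBS mice (median 44.8) and from 40.9 to 60.6 CPM in HsTX1[R14A] mice (median 53.9). The lowest 4 PBS mice lay below every HsTX1[R14A] mouse. On the log2 scale the difference was 0.36 (standard error 0.12, adjusted p = 0.0303), and dropping PBS mouse 90, or any of HsTX1[R14A] mice 98, 71, 72, 88 and 81, ended the call, with adjusted p up to 0.0562. With the length slope as a covariate the value for Lrp6 was 0.00619 (adjusted p = 0.977), and after removal of the length and GC trend it was 0.12 (adjusted p = 0.132). Its relative Lrp5 spread far more widely between mice, from 1.28 to 9.41 CPM in PBS mice and from 1.97 to 11.01 CPM in HsTX1[R14A] mice. Lrp5 had the larger log2 fold change, 0.69 with a standard error of 0.30, and was not called (adjusted p = 0.0840). Fzd4, the receptor for Norrin on vessels of brain and retina, ranged from 1.46 to 3.91 CPM in PBS mice (median 2.41) and from 1.92 to 4.49 CPM in HsTX1[R14A] mice (median 2.83). Its log2 fold change was 0.42 (standard error 0.16, adjusted p = 0.0466). This call was the least firm of the 10: it held in 5 of the 21 fits with 1 mouse left out (without PBS mouse 84, 102, 82 or 83 or HsTX1[R14A] mouse 93), with adjusted p up to 0.103. The Fzd4 value was 0.25 after removal of the length and GC trend (adjusted p = 0.162) and 0.08 with the length slope as a covariate (adjusted p = 0.856). The summed level of 12 endothelial markers was 151 to 222 CPM in PBS mice and 153 to 251 CPM in HsTX1[R14A] mice, with 2 of the 12 called higher; their part in the Fzd4 result was not tested. Fzd8, described because it lay at the threshold, had a fitted log2 difference of 0.46 (standard error 0.18, adjusted p = 0.05002) and was not called. The other 7 Frizzled genes were not called, with log2 fold changes from -0.13 (Fzd6) to 0.48 (Fzd5).

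Ryk, a receptor related to tyrosine kinases that binds Wnts through a domain of its own, was the only receptor called lower. It ranged from 28.5 to 43.1 CPM in PBS mice (median 34.7) and from 28.1 to 34.7 CPM in HsTX1[R14A] mice (median 30.6). Of the PBS mice, 6 lay above every HsTX1[R14A] mouse. The fitted log2 fold change came to -0.22 (standard error 0.07, adjusted p = 0.0307). It was not called without PBS mouse 73, 101 or 90 or HsTX1[R14A] mouse 98, 71, 72, 88 or 81, with adjusted p up to 0.0740. The value was -0.18 after removal of the length and GC trend (adjusted p = 0.0782), -0.06 with the length slope as a covariate (adjusted p = 0.740) and 0.04 within the 6 mice of the less common name form. The other branch receptors, Ror1 and Ror2, and Lgr4, a receptor for R-spondins, were not called.

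**Figure D3:**
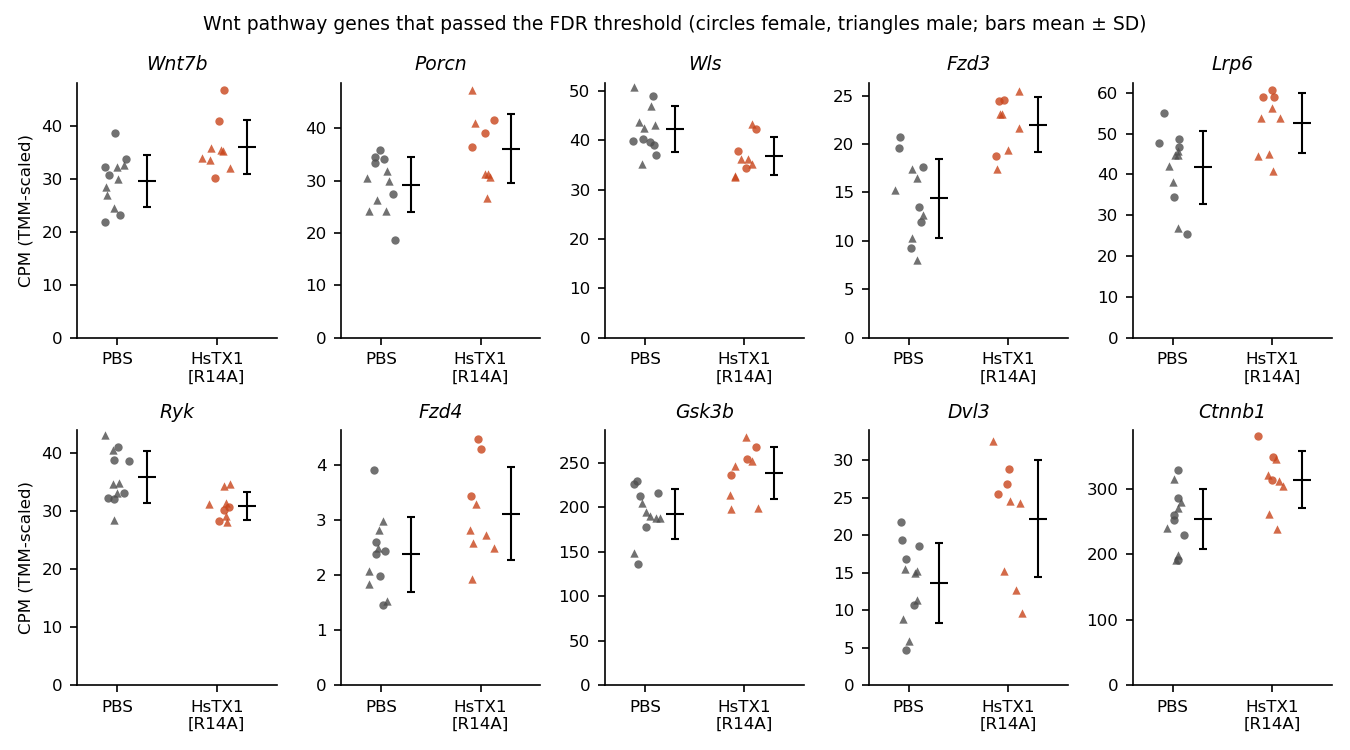
CPM (TMM-scaled, vertical axis from 0) of the 10 called Wnt pathway genes in each mouse, with the mean ± SD of each treatment as a bar. Circles are female and triangles male mice. Every panel shows overlap between PBS and HsTX1[R14A] mice; for Fzd3, 9 of 12 PBS mice lie below all HsTX1[R14A] mice.

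Among the 9 cytoplasmic transducers and destruction complex genes, 3 were called higher and none lower (33.3% called, beside 31.6% of all genes). Dvl3, a Dishevelled protein that relays the signal from Frizzled, had the largest fold change of all members. It ranged from 4.68 to 21.8 CPM in PBS mice (median 15.1) and from 9.61 to 32.6 CPM in HsTX1[R14A] mice (median 24.5). Both groups spread widely, and 6 HsTX1[R14A] mice lay above every PBS mouse. Its log2 fold change was 0.77 (standard error 0.24, adjusted p = 0.0260), and the call was lost if PBS mouse 90 or HsTX1[R14A] mouse 81 was dropped (adjusted p up to 0.0530). Dvl3 followed the length slope of the library almost point by point in PBS mice (r = 0.98, n = 12), and with the slope as a covariate its value was -0.04 (adjusted p = 0.888). It was still called after removal of the length and GC trend (0.59, adjusted p = 0.0323) and without PBS mice 103 and 90 (0.62, adjusted p = 0.0344). The other Dishevelled genes, Dvl1 and Dvl2, had log2 fold changes of 0.06 and 0.23 and were not called; after removal of the length and GC trend they were -0.30, which was called lower, and -0.10.

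Gsk3b, the kinase that phosphorylates beta-catenin in the destruction complex, ranged from 136 to 230 CPM in PBS mice (median 192) and from 198 to 279 CPM in HsTX1[R14A] mice (median 246). Of the PBS mice, 7 lay below every HsTX1[R14A] mouse, and 6 HsTX1[R14A] mice lay above every PBS mouse. On the log2 scale the difference was 0.33 (standard error 0.09, adjusted p = 0.0192). Gsk3b was called with any 1 mouse left out (adjusted p 0.00984 to 0.0400), while after removal of the length and GC trend the value was 0.11 (adjusted p = 0.120) and with the length slope as a covariate 0.07 (adjusted p = 0.619).

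Ctnnb1, the transducer itself, ranged from 191 to 328 CPM in PBS mice (median 256) and from 239 to 380 CPM in HsTX1[R14A] mice (median 313). The lowest 4 PBS mice lay below every HsTX1[R14A] mouse, and 3 HsTX1[R14A] mice lay above every PBS mouse. The fitted log2 fold change came to 0.33 (standard error 0.10, adjusted p = 0.0271). It was called after removal of the length and GC trend (0.27, adjusted p = 0.0315) and the call was lost if PBS mouse 90 or HsTX1[R14A] mouse 71 was dropped (adjusted p up to 0.0552). With the length slope as a covariate the value was 0.09 (adjusted p = 0.713), and within the 6 mice of the less common name form it was 0.00626 (adjusted p = 0.992). The coding gene Ulk4 overlaps Ctnnb1 on the opposite strand.

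The other destruction complex genes were not called. Axin2, a scaffold that is also a classic target of beta-catenin, ranged from 9.01 to 24.9 CPM in PBS mice (median 19.6) and from 16.1 to 25.8 CPM in HsTX1[R14A] mice (median 22.3), with a fitted log2 difference of 0.28 (standard error 0.14, adjusted p = 0.133). Axin1 had a log2 fold change of 0.12 and Apc, the large scaffold protein, of 0.26 (adjusted p = 0.227 and 0.172). Csnk1a1, the priming kinase for beta-catenin, stood at the threshold on the lower side, with 247 to 319 CPM in PBS mice (median 282), 214 to 307 CPM in HsTX1[R14A] mice (median 257), a log2 fold change of -0.17 (standard error 0.07) and an adjusted p of 0.0503.

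None of the 6 secreted antagonists was called. Sfrp4, which binds Wnts outside the cell, ranged from 1.17 to 2.23 CPM in PBS mice (median 1.64) and from 0.697 to 1.92 CPM in HsTX1[R14A] mice (median 1.36), with a fitted log2 difference of -0.32 (standard error 0.15, adjusted p = 0.110). Sfrp2 was 0.747 to 2.06 CPM in PBS mice (median 1.38) and 0.943 to 2.47 CPM in HsTX1[R14A] mice (median 1.52), with 0.25 (standard error 0.18, adjusted p = 0.262). Dkk2, a ligand of Lrp6, was 0.264 to 1.25 CPM in PBS mice (median 0.739) and 0.533 to 1.35 CPM in HsTX1[R14A] mice (median 0.844), with 0.26 (standard error 0.20, adjusted p = 0.324). Dkk3, a divergent Dickkopf protein of neurons, was the most abundant antagonist per length at a median of 55.4 CPM per kb in PBS mice, followed by Sfrp1 at 6.31. Dkk3 had a fitted log2 difference of -0.03 (standard error 0.17).

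The 4 feedback inhibitors of the membrane and cytoplasm were not called either. Znrf3, a ubiquitin ligase that removes Frizzled receptors from the surface, ranged from 6.81 to 16.7 CPM in PBS mice (median 11.7) and from 8.50 to 15.7 CPM in HsTX1[R14A] mice (median 14.2), with a fitted log2 difference of 0.26 (standard error 0.14, adjusted p = 0.148). Nkd1, an inhibitor that binds Dishevelled, ranged from 9.37 to 17.5 CPM in PBS mice (median 13.5) and from 10.1 to 15.4 CPM in HsTX1[R14A] mice (median 12.4), with -0.11 (standard error 0.11, adjusted p = 0.464). Rnf43 had a log2 fold change of 0.16 and Nkd2 of -0.01, the latter turning to 0.000746 with RLE scaling.

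None of the 4 TCF/LEF genes, which encode the DNA-binding partners of beta-catenin, was called, and each varied between mice more than the median member (highest over lowest value 6.59-fold to 18.1-fold over 21 mice). Tcf7l2 ranged from 2.82 to 34.9 CPM in PBS mice (median 10.9) and from 5.66 to 51.0 CPM in HsTX1[R14A] mice (median 10.8), with a fitted log2 difference of 0.37 (standard error 0.44, adjusted p = 0.521). Leaving out HsTX1[R14A] mouse 71 turned it to -0.05. Lef1 ranged from 1.98 to 7.66 CPM in PBS mice (median 3.99) and from 1.67 to 11.2 CPM in HsTX1[R14A] mice (median 4.62), with 0.28 (standard error 0.33, adjusted p = 0.517). Tcf7l1, mostly a repressor, ranged from 1.06 to 7.02 CPM in PBS mice (median 4.64) and from 2.17 to 6.93 CPM in HsTX1[R14A] mice (median 5.49), with 0.29 (standard error 0.29, adjusted p = 0.436). Tcf7, best known from T cells, ranged from 2.82 to 22.2 CPM in PBS mice (median 4.21) and from 2.65 to 5.81 CPM in HsTX1[R14A] mice (median 4.40), with -0.50 (standard error 0.30, adjusted p = 0.189). PBS mouse 102 alone was high for Tcf7, at 779 counts; the other 20 mice reached at most 6.25 CPM. Without it the PBS mean was 4.28 ± 0.904 CPM (SD, n = 11) and the log2 fold change was -0.03.

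Some members differed far more between mice than between treatments. Over the 21 mice the highest value exceeded the lowest 36.6-fold for Wnt9b and 18.1-fold for Tcf7l2, against 1.35-fold for Dvl1 and 1.49-fold for Csnk1a1. At an adjusted p of at most 0.05, 10 members rose and 2 fell with the summed level of 13 markers of thalamus and habenula, a list that holds none of the members. This relation was worked out for the members only, so no share of all genes stands beside these counts. Wnt3, Wnt9b, Tcf7l2 and Lef1 had the highest r and are described for that reason. The other 6 that rose were Fzd10 (r = 0.68), Nkd1 (0.68), Fzd1 (0.64), Nkd2 (0.61), Sfrp5 (0.58) and Ror2 (0.53), and Wnt2 (-0.60) and Dkk2 (-0.54) fell. By Spearman's rho the adjusted permutation p was above 0.05 for Wnt2 (0.0779), Sfrp5 (0.0548) and Ror2 (0.0510). Tcf7l2 and Lef1 are known as markers of thalamic neurons. Against the log2 of the summed markers, over 21 mice, Pearson's r was 0.91 for Wnt3 (Spearman's rho 0.91), 0.90 for Tcf7l2 (rho 0.88), 0.87 for Wnt9b (rho 0.84) and 0.78 for Lef1 (rho 0.73). The permutation p of Pearson's r was 1e-05 for Wnt3, Tcf7l2 and Wnt9b, the smallest that 100000 resamples can give, and 9e-05 for Lef1; that of rho was 1e-05 for the same 3 genes and 0.0004 for Lef1. Adjusted over 162 relations (54 members and 3 measures), the p of Pearson's r was 0.000202 for the same 3 genes and 0.000972 for Lef1, and that of rho was 0.000324 and 0.00486. Without the 2 mice farthest from the median of the marker sum, r was 0.87 (Wnt3), 0.86 (Tcf7l2), 0.82 (Wnt9b) and 0.72 (Lef1).

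Part of these relations came from the mice with the highest marker sums. The marker sum was 404 to 475 CPM in 5 mice (PBS mice 84, 85 and 82, HsTX1[R14A] mice 88 and 71) and 172 to 325 CPM in the other 16. Tcf7l2 was 19.7 to 51.0 CPM in the 5 mice and 2.82 to 18.7 CPM in the others. Wnt9b was 1.91 to 2.38 CPM in the 5 and 0.0649 to 0.899 CPM in the others, Wnt3 4.11 to 5.10 against 1.45 to 3.72 CPM, and Lef1 7.05 to 11.2 against 1.67 to 6.82 CPM. Within the 16 mice, r was 0.73 for Wnt3, 0.72 for Tcf7l2, 0.56 for Wnt9b and 0.41 for Lef1. Among the 15 mice whose libraries carry the more common name form r was 0.90, 0.91, 0.92 and 0.87 for the same genes. Within the 6 mice of the other form it was 0.98, 0.71, -0.37 and 0.40. Those 6 mice had marker sums of only 181 to 244 CPM and include none of the 5 high mice. Over so narrow a range, r cannot show whether the Wnt9b relation holds in that form. Of the other related members, r within the 16 mice was 0.47 (Nkd2), 0.45 (Ror2), 0.39 (Nkd1), 0.33 (Fzd1), 0.30 (Sfrp5), 0.15 (Fzd10), 0.11 (Wnt2) and -0.41 (Dkk2). Within the other form it was -0.24 for Sfrp5 and -0.06 for Wnt2, and kept its direction at 0.41 or farther from 0 for the rest. The marker sum had a median of 258 CPM in PBS mice (182 to 454) and 231 CPM in HsTX1[R14A] mice (172 to 475). Wnt3 and Wnt9b are neighbors on chromosome 11 of GRCm38, on opposite strands, at 103774150 to 103817957 and 103727364 to 103749821, with 24328 bases between them. Neither was called for treatment: Wnt3 had a log2 value of -0.03 (standard error 0.25) and Wnt9b of -0.02 (standard error 0.59).

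**Figure D4:**
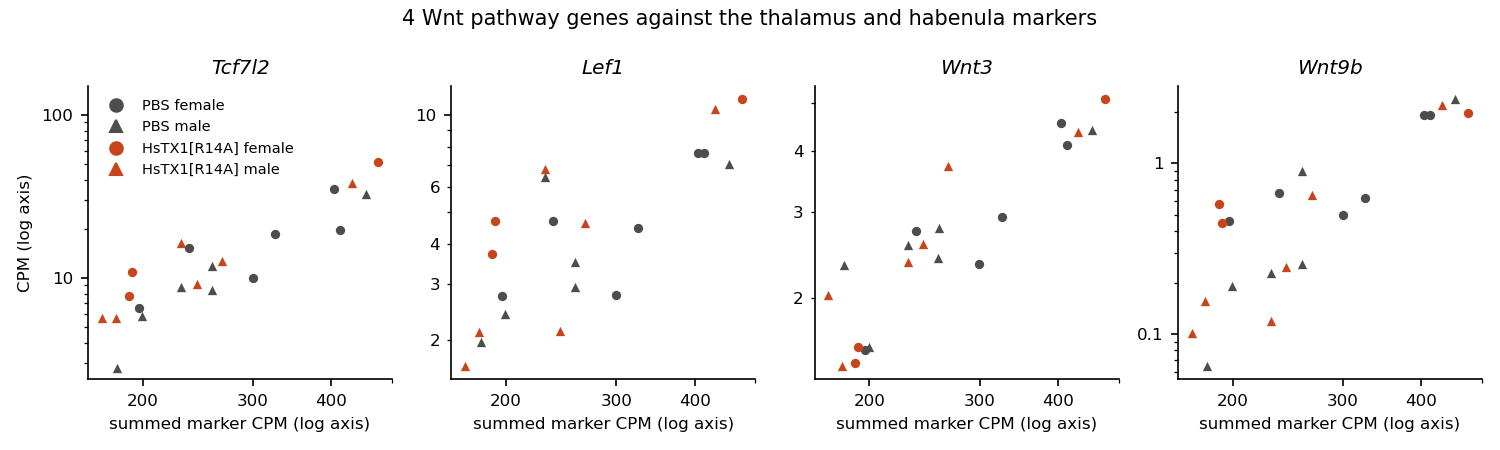
CPM of Tcf7l2, Lef1, Wnt3 and Wnt9b (vertical, log axes) against the summed CPM of 13 thalamus and habenula markers (horizontal, log axis) in each of the 21 mice. Circles are female and triangles male mice, gray PBS and orange HsTX1[R14A]. The 5 mice with a marker sum of 404 to 475 CPM lie highest for each of the 4 genes and include both treatments.

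The promoters of these 4 genes are shown because the genes moved together between mice and include TCF/LEF factors themselves. They come from RefSeq (GRCm38.p6), 250 bases before to 50 bases after the start, written 5′ to 3′ on the gene's strand: chr11:103773925-103774224 (plus) for Wnt3, chr11:103749772-103750071 (minus) for Wnt9b, chr19:55741560-55741859 (plus) for Tcf7l2 and chr3:131110073-131110372 (plus) for Lef1. Capitals mark the GC box, searched as GGGCGG and, for the opposite strand, as CCGCCC. The core of the TCF/LEF motif was searched only as CTTTGA and, for the opposite strand, as TCAAAG. These letters are in none of the 4 windows. Other forms of the motif were not searched, so its absence from the windows is not shown.
Wnt3: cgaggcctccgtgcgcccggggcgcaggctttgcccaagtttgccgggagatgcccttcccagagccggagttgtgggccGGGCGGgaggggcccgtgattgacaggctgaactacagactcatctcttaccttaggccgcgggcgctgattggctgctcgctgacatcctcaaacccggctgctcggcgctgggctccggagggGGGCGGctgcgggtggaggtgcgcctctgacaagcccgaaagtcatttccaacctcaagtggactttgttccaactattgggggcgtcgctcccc
Wnt9b: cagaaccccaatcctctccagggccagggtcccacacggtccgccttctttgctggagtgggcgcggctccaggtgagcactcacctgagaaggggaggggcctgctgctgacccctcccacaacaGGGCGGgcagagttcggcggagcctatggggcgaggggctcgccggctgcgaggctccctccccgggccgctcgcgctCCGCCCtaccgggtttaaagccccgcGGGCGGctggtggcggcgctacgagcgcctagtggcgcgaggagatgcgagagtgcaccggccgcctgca
Tcf7l2: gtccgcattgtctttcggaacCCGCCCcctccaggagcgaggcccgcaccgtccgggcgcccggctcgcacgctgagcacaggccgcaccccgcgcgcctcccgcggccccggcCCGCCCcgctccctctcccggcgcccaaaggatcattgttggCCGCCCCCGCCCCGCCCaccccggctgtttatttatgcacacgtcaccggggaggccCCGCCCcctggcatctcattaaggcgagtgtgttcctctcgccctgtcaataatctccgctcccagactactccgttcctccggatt
Lef1: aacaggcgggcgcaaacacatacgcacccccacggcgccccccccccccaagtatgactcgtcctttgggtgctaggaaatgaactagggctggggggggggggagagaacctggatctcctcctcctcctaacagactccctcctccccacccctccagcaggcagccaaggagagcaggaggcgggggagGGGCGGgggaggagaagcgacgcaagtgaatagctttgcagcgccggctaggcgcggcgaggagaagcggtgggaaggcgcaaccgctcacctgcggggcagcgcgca

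RefSeq promoters were matched by symbol for 37 of the 54 members. For each member 1 promoter was kept, the one starting nearest the annotated 5′ end of the gene. The sets set beside them count every promoter listed, with several for some genes. The TCF/LEF core letters stood in 3 of these 37 windows (8.11%), those of Fzd1, Ror1 and Gsk3b, against 16.003% of all 32851 promoters in the table and 12.003% of the 14755 that belong to tested genes. The GC box letters stood in 29 of 37 (78.4%), against 35.7% of all promoters and 59.9% of those of tested genes. The members' windows held a median of 30 CpG pairs, against 7 in all promoters and 19 in those of tested genes. Gsk3b is shown as the called member whose window holds the TCF/LEF core, at chr16:38088751-38089050 (plus) and 77 bases before the start, in capitals. Such a match is a description of the letters and not evidence of binding.
Gsk3b: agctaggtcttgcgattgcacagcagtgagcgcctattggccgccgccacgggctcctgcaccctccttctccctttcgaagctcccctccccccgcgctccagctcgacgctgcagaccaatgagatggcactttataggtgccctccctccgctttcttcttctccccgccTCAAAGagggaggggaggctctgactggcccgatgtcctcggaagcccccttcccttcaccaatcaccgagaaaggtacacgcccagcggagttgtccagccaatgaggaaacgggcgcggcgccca

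The meninges gave a second set of related genes. Wnt6 followed the summed level of 12 meningeal and fibroblast markers (r = 0.83, rho 0.83, n = 21, permutation p = 3e-05 and 1e-05, adjusted p = 0.000442 and 0.000324, and r = 0.88 without the 2 farthest mice). Within the more common name form r was 0.86, and within the 6 mice of the other form it was -0.46. The marker sums of those 6 mice ran only from 67.5 to 111 CPM. Over so narrow a range, r cannot show whether the relation holds in that form. Nkd2 (r = 0.74), Ror2 (0.65) and Sfrp5 (0.55) also rose with the sum, and Wnt9a (-0.83) fell with it, at adjusted p of at most 0.05. How many of all genes did so was not counted here either. Within the 6 mice of the other form, over the same narrow range, r was 0.81 for Nkd2, 0.97 for Ror2, -0.05 for Sfrp5 and -0.47 for Wnt9a. Nkd2, Ror2 and Sfrp5 are also among the members that rose with the thalamus and habenula sum. The meningeal marker sum was 78.0 to 271 CPM in PBS mice and 67.5 to 213 CPM in HsTX1[R14A] mice. None of the 12 markers was called, and all 12 had a log2 fold change below 0. Wnt6 itself ranged from 0.458 to 1.87 CPM in PBS mice and from 0.533 to 1.503 CPM in HsTX1[R14A] mice (log2 fold change -0.17, standard error 0.26).

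The length slope of the library was related to more members than either marker sum, within the 12 PBS mice and so without any treatment difference. At an adjusted p of at most 0.05, 21 members rose with the slope and 2, Csnk1a1 (r = -0.81) and Ryk (r = -0.72), fell with it. By Spearman's rho the adjusted permutation p was above 0.05 for Dvl2 (0.0912), Rnf43 (0.0720) and Dvl1 (0.0600). The 8 members called higher had r from 0.74 (Fzd4) to 0.98 (Dvl3), with a median of 0.89, and the 44 members not called had a median of 0.52. The slope is itself fitted over the tested genes with a known length, members included. Relations to it were worked out for the members only, so these counts and medians do not set members apart from other genes. For Dvl3 rho was 0.92, the permutation p was 1e-05 for r and 6e-05 for rho, the adjusted p was 0.000202 and 0.00162, r was 0.95 without the 2 farthest mice, and r was 0.98 within the 10 PBS mice of the more common name form. Of the members not called, Lrp5 (0.95), Axin2 (0.93), Znrf3 (0.93), Tcf7l1 (0.91) and Apc (0.91) were among the closest. Without the 2 farthest mice r was -0.49 for Ryk, 0.48 for Dvl1, 0.49 for Rnf43, 0.52 for Dvl2 and 0.54 for Axin1. Since the slope also differed between the treatments, the slope and the treatment cannot be fully told apart in these libraries.

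**Figure D5:**
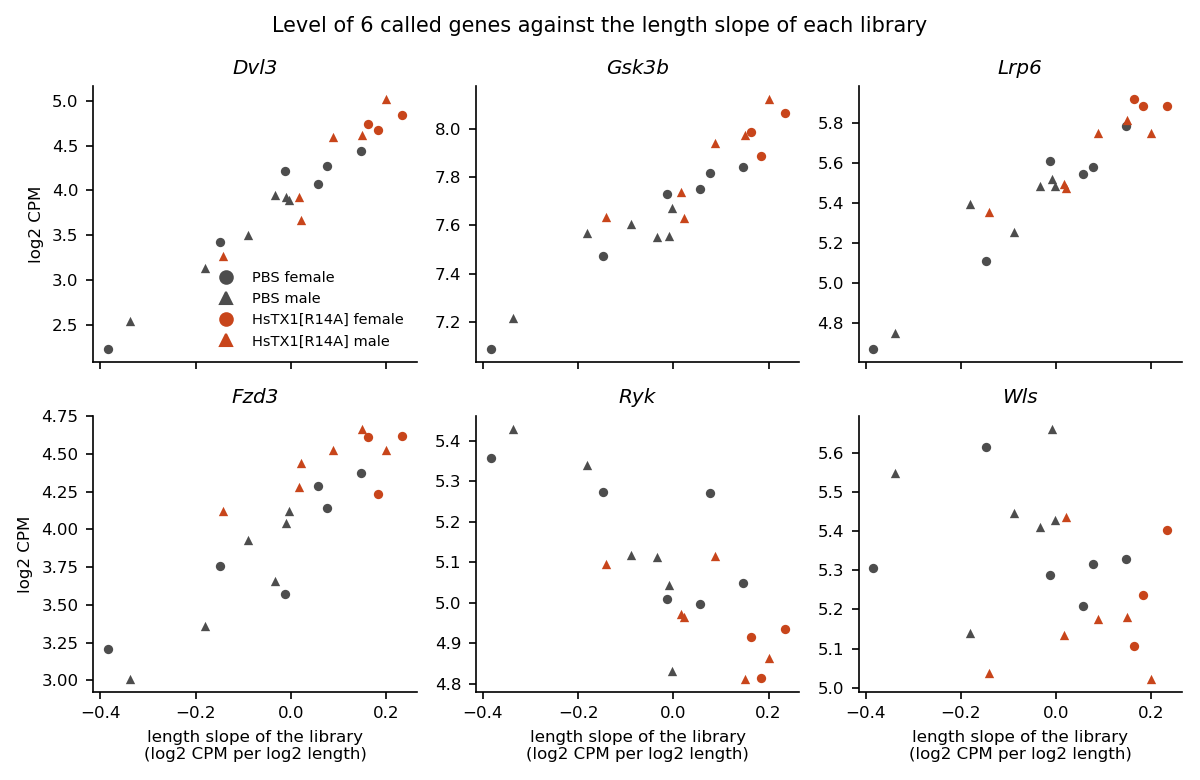
Log2 CPM (vertical) of 6 called Wnt pathway genes against the length slope of the library (horizontal, log2 CPM per log2 of transcript length) in each mouse. Gray points are PBS and orange points HsTX1[R14A] mice, circles female and triangles male. Dvl3, Gsk3b, Lrp6 and Fzd3 rise with the slope in PBS mice (r = 0.98, 0.95, 0.95 and 0.90), Ryk falls (r = -0.72) and Wls shows little relation (r = -0.14).

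No member was called for sex (lowest adjusted p = 0.446, edgeR), where 9 of all genes tested were (0.0552%), 5 of them higher in males (0.0307%) and 4 higher in females (0.0245%). A higher estimate in females was found in 43 of the 54 members and in 8391 of the 16303 genes, and 7 members had an unadjusted p under 0.05, as did 10.8% of all genes. No gene was called for an interaction of treatment with sex (edgeR; 270 genes, 1.66%, had an unadjusted p under 0.05, and limma/voom and DESeq2 also called 0). Among the members, 2 had an unadjusted p under 0.05. Wnt4, a ligand with roles in kidney and gonad, was estimated at 0.29 in females and -0.08 in males, a difference of -0.38 (standard error 0.17). Wnt2 was estimated at -0.46 in females and 0.23 in males, a difference of 0.69 (standard error 0.32). Both had an adjusted interaction p of 1.00 (edgeR), with HsTX1[R14A] females the smallest group.

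Other genes of the pathway, from lists that exclude the members, were called in both directions. Of 28 further destruction complex and cytoplasmic regulators, 9 were called higher and 1 lower (35.7% called, beside 31.6% of all genes), with a median log2 fold change of 0.15. Btrc, the ubiquitin ligase subunit that recognizes phosphorylated beta-catenin, ranged from 52.5 to 94.8 CPM in PBS mice and from 72.1 to 102 CPM in HsTX1[R14A] mice (log2 fold change 0.38, standard error 0.10, adjusted p = 0.0170). The casein kinase gene Csnk1g2 ranged from 151 to 243 and from 127 to 183 CPM (-0.33, standard error 0.08, adjusted p = 0.0164). Of 19 nuclear cofactors of beta-catenin, 7 were called higher and 1 lower (42.1% called; median 0.24). Pygo2, a coactivator that reads histone methylation, had 0.48 (standard error 0.10, adjusted p = 0.0151), and Ctnnbip1, an inhibitor that keeps beta-catenin from TCF factors, had -0.26 (standard error 0.06, adjusted p = 0.0163).

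Of 24 planar cell polarity genes, 3 were called higher and 2 lower (20.8% called; median 0.16). Celsr2, an adhesion receptor of that branch, ranged from 23.7 to 162 CPM in PBS mice and from 41.9 to 227 CPM in HsTX1[R14A] mice (log2 fold change 1.16, standard error 0.30, adjusted p = 0.0171), and the GTPase gene Rhoa had -0.21 (standard error 0.06, adjusted p = 0.0240). Of 14 further secreted and membrane inhibitors, 4 were called higher and none lower (28.6% called; median 0.12). Tmem198 had 0.44 (standard error 0.14, adjusted p = 0.0271), and Cthrc1 had -0.21 and was not called (adjusted p = 0.0714). Of 9 R-spondin and Norrin pathway genes, none was called higher and 1 lower (11.1% called; median -0.02). That gene was Tspan12, the coreceptor that works with Fzd4 in Norrin signaling, at 17.7 to 34.6 CPM in PBS mice and 14.6 to 21.5 CPM in HsTX1[R14A] mice (-0.45, standard error 0.12, adjusted p = 0.0173). Lgr5 had 0.92 with a standard error of 0.41 and was not called (adjusted p = 0.0868).

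Of 20 genes known as targets of beta-catenin in brain, vessels or other tissues, 2 were called higher and 1 lower (15%, beside 31.6% of all genes), with a median log2 fold change of 0.12. Slc2a1, the glucose transporter of brain endothelium, had 0.40 (standard error 0.12, adjusted p = 0.0237), and Id2, an inhibitor of helix-loop-helix factors, had -0.47 (standard error 0.13, adjusted p = 0.0193).

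Some markers of other cell types were called in the same libraries, where 31.6% of all genes were called (15.5% higher and 16.1% lower). The share called was 55.6% for oligodendrocyte, 50% for astrocyte, 44.4% for microglia and 33.3% for oligodendrocyte precursor markers. It was 27.3% for neuron and 20% for ependymal markers, and lower still in the other lists given here. Of 9 oligodendrocyte markers 5 were called lower, with a summed level of 4473 to 6858 CPM in PBS mice and 3399 to 4996 CPM in HsTX1[R14A] mice. Of 9 microglia markers 4 were called lower (408 to 603 against 341 to 515 CPM). Among 10 astrocyte markers 2 were called higher and 3 lower (3119 to 5180 against 3333 to 5250 CPM), and among 11 neuron markers 3 were called higher (6215 to 9498 against 7847 to 11376 CPM). Of 9 oligodendrocyte precursor markers 2 were called higher and 1 lower (181 to 366 against 201 to 366 CPM), of 10 ependymal markers 2 lower (18.9 to 50.6 against 16.1 to 33.8 CPM), of 11 cerebellar markers 1 higher (254 to 491 against 230 to 1027 CPM) and of 13 thalamus and habenula markers 1 lower. None of 14 choroid plexus markers (292 to 1574 against 195 to 1286 CPM) and none of 8 dentate gyrus markers (183 to 284 against 172 to 254 CPM) was called. Markers at 0 in some mouse numbered 2 in the cerebellar list and 1 in the thalamus and habenula list, and 0 in the other lists of markers. The part of these differences in the results of the Wnt pathway genes was not tested.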

How the data were processed

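Whole-brain RNA of 21 SAMP8 mice was sequenced, each mouse giving 1 library. Reads were mapped by the authors with STAR (GRCm38), and estimated counts made with Salmon, not normalized, were deposited for 16318 genes; how these genes were selected is not given in the sources used here. The authors combined the sexes, corrected for sex and used TMM with limma/voom. Their comparison columns (fold change and p-values) and 53 other per-sample columns were not used. The labels name another library kit than the directional kit of the study's methods. If strand was not used in counting, 23 members share bases with a gene on the opposite strand, and 14 overlap a gene on the same strand.

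Estimated counts were rounded (90.5% lay within 0.01 of a whole number). Genes passing filterByExpr by sex and treatment (16303) were tested with edgeR 4.0.16 in R 4.3.3 (TMM, glmQLFit, glmQLFTest, sex and treatment, Benjamini-Hochberg, threshold 0.05). A standard error is the size of the log2 fold change divided by the square root of F, and log2 CPM for slopes and correlations carries a prior count of 2. In simulated counts the procedure called 179 of 200 genes changed 2-fold, with 11 false calls. The simulation held no length slope or name form, so it cannot show how the test behaves with them. Alternatives were limma 3.58.1 with voom, DESeq2 1.42.0, RLE scaling, other filters, no sex term, the library name form or length slope as a covariate, each name form alone, removal of loess trends (span 0.5) on length and GC content, and each mouse left out. The shallowest library held 14917174 counts; 14228 genes reached 10 counts in each of the 21 libraries.

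The members and lists were chosen with earlier results of these data known. Of each role group, the 3 members with the smallest p (2 in groups of up to 4), members on which a count of 2 or fewer calls rested, and Ctnnb1, Axin2, Lef1 and Tcf7l2 were named by rule, as was the smallest p in each direction of each other pathway list. Members named after their values were seen, for position at a threshold, an interaction, a correlation, an extreme or their family, were the others given with values. Transcript lengths and gene overlaps came from GENCODE for GRCm38 and promoters from RefSeq (GRCm38.p6). All p-values measure the spread between mice.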

Additional observations from a re-analysis of the deposited data

Results flagged for a closer look

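In 162 groups of 6 mice (the 54 Wnt pathway genes in each of 3 groups; the 3 HsTX1[R14A] females were too few), 16 had a mouse whose gap to the nearest other mouse was large against the range of its group (Dixon's test, critical value 0.625). Chance alone flags about 1 in 20 such groups.

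HsTX1[R14A] male mouse 88 was high for Wnt5a (10.2 CPM, group median 6.06), Sfrp5 (4.71 CPM, group median 1.498), Tcf7l2 (38.3 CPM, group median 10.9) and Wnt9b (2.19 CPM, group median 0.202). PBS male mouse 82 was likewise high for Tcf7l2 (32.7 CPM, group median 8.56) and Wnt9b (2.38 CPM, group median 0.242). Both are among the 5 mice with the highest summed thalamus and habenula markers, at 431 and 454 CPM.

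PBS male mouse 102 was high for Tcf7 (22.2 CPM, group median 4.46) and for Wnt2b (0.683 CPM, group median 0.480). Genes looked at after this value was seen were also high in that mouse: Lck, a T cell kinase, was 7.86 CPM (0.642 to 2.34 in the other 20 mice), Ptprc, the leukocyte gene for CD45, was 10.4 CPM (2.52 to 4.60), Myb 4.47 CPM (0.325 to 1.48), and the proliferation genes Mki67 and Top2a were 7.40 CPM (0.691 to 3.05) and 8.28 CPM (0.772 to 2.93). Trac, the constant region of the T cell receptor alpha chain, was 1.42 CPM and within the range of the other mice (0.348 to 3.34).

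Wls was high in HsTX1[R14A] male mouse 92 (43.3 CPM, group median 35.6) and in PBS female mouse 73 (49.0 CPM, group median 39.7). Gsk3b was low in PBS male mouse 90 (149 CPM, group median 189), and Axin2 was low in PBS female mouse 103 (9.01 CPM, group median 21.2). Mice 90 and 103 had the lowest length slopes, -0.337 and -0.384. Wnt5b was high in PBS female mouse 103 (1.49 CPM, group median 0.869) and low in HsTX1[R14A] male mouse 93 (0.354 CPM, group median 0.888). HsTX1[R14A] male mouse 74 was high for Ror1 (3.1995 CPM, group median 0.998) and Fzd7 (11.8 CPM, group median 5.82).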

How the results depend on the processing

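The 10 members called (8 higher, 2 lower) were all still called with limma/voom, DESeq2, RLE scaling and both other filters. DESeq2 called 15 members higher and 3 lower, the added ones being Dvl2, Fzd1, Fzd8, Lgr4, Wnt2b, Wnt5a and Wnt7a higher and Csnk1a1 lower. Of all 16303 genes tested, DESeq2 called 6145 (37.7%). Without the sex term 4 were called higher (Ctnnb1, Fzd3, Gsk3b, Wnt7b) and 1 lower (Ryk). With the library name form as a covariate 3 were called higher, of which Fzd3 and Gsk3b are among the 8 and Fzd1 is not, and 0 lower. With the length and GC trend removed 3 of the 8 were called higher (Ctnnb1, Dvl3, Fzd3), and 1 member was lower, Dvl1, which is not among the 2. No member was called (0 higher, 0 lower) with the length slope as a covariate, in the more common name form alone or in the other form alone; unadjusted p was under 0.05 in 7, 16 and 1 members and in 1865, 5797 and 532 of all genes. Without PBS mice 103 and 90, an alternative chosen after seeing the data, 4 of the 8 were called (Dvl3, Fzd3, Gsk3b, Lrp6) and 0 lower. With 1 mouse left out, the number called higher ran from 2 (without PBS mouse 90) to 18 (without HsTX1[R14A] mouse 93), and lower from 0 (without PBS mouse 73 or 90 or HsTX1[R14A] mouse 72, 88 or 81) to 3. Of the members not called, 11 were called with at least 1 mouse left out (Wnt5a, Wnt2b, Wnt7a, Fzd1, Fzd2, Fzd5, Fzd8, Lgr4, Lrp5, Dvl2 and Csnk1a1), each of them without HsTX1[R14A] mouse 93; for Wnt2b, Lrp5 and Fzd5 that was the only such mouse. Over all genes, 5144 calls became 2984 without the sex term, 1999 with the name form, 2595 with the trend removed, 2887 without mice 103 and 90, 0 with the slope or in either name form alone, and 2289 to 6614 with 1 mouse left out. Genes called for sex, 9 of all tested, became 26 with DESeq2 and 1 when each mouse had to reach 10 counts. The median log2 fold change of all genes was -0.01 under both TMM and RLE scaling.

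With the length slope as a covariate the log2 fold change turned to -0.15 for Znrf3, -0.0416 for Dvl3, -0.55 for Tcf7l1, -0.15 for Axin2, -0.45 for Lef1, -0.31 for Tcf7l2, -0.0112 for Wnt4, -0.0289 for Wnt9a, -0.00628 for Lgr4, -0.32 for Lrp5, -0.0696 for Fzd5, -0.29 for Ror2, -0.0830 for Fzd10, -0.26 for Rnf43, -0.00706 for Dvl2, -0.17 for Apc, -0.0835 for Axin1 and -0.0397 for Dvl1, and to 0.27 for Wnt2. With the trend removed it was -0.16 for Wnt4, -0.0602 for Wnt5b, -0.0694 for Wnt9a, -0.0259 for Fzd9, -0.00259 for Fzd7, -0.13 for Ror2, -0.11 for Fzd10, -0.0782 for Rnf43, -0.0954 for Dvl2, -0.0878 for Axin1 and -0.30 for Dvl1. In the other name form alone it was 0.0379 for Ryk, -0.18 for Sfrp2, -0.36 for Lef1, 0.00457 for Csnk1a1, 0.27 for Wnt2, 0.46 for Wnt6, 0.0166 for Wnt10a, -0.19 for Wnt5b, 0.19 for Fzd6, -0.18 for Fzd9, -0.0399 for Fzd7, -0.68 for Ror2, -0.23 for Fzd10, -0.31 for Sfrp5, 0.0545 for Sfrp1, 0.0426 for Dkk3, 0.00566 for Nkd2 and -0.0424 for Axin1. In the more common form it was 0.18 for Wnt3, 0.29 for Wnt9b, -0.0494 for Wnt9a and 0.13 for Nkd2, and with the name form as a covariate 0.0935 for Wnt3, 0.23 for Wnt9b, 0.0318 for Wnt6, -0.0281 for Wnt9a and 0.12 for Nkd2. Of the remaining changes of sign, Nkd2 was 0.000746 with RLE scaling and 0.0585 with limma/voom, Fzd10 -0.0243 with limma/voom, Dkk3 0.00451 without the sex term and Wnt2 0.0519 without mice 103 and 90.

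With 1 mouse left out the range crossed 0 for Tcf7l2 (-0.0465 to 0.74), Wnt2 (-0.11 to 0.0798), Wnt4 (-0.00394 to 0.10), Wnt3 (-0.27 to 0.0813), Wnt9b (-0.58 to 0.49), Ror2 (-0.13 to 0.25), Fzd10 (-0.20 to 0.15), Dkk3 (-0.10 to 0.0290) and Nkd2 (-0.15 to 0.13), and for Tcf7 it ran from -0.64 to -0.03. The cause of these changes was not tested. Over the 54 members and all alternatives, 1516 values kept direction and call, 107 lost the call, 52 gained it and 99 changed sign. The 1516 include members not called that stayed so, while only the called members could lose a call. Wnt8b, Wnt9b, Ror2 and Wnt2b had medians of 8, 10, 11 and 17 counts over the mice, which limits their precision.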
